A study of Mus musculus with 43 samples.

Results

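The 11 genes described here are Efemp1, Tgm1, Ly6c1, Ccdc92, Kcne3, Rab15, Tmem158, Cited4, Fabp5, Cbs and Hist1h4i, which were higher after TGFB1 in irradiated mouse intestinal organoids at day 11 (D11) and met upper limits on that difference at day 7 (D7). They were chosen from group means of FPKM (fragments scaled by transcript length and sequencing depth). The difference of log2(mean + 1), TGFB1 minus vehicle, had to be at least 1.5 at D11, below 0.3 in irradiated D7 organoids and below 0.6 in non-irradiated D7 organoids, and the D11 TGFB1 mean at least 5 FPKM. The tables held 23951 genes. With symbols of small RNAs or predicted genes left out, 246 met the D11 limits, 17 of these also met the limit for irradiated D7 organoids, and 11 met all of them. Before such symbols were left out, 14 genes met all limits, and the 3 dropped were Mir1957b, Snora33 and Gm6644. The bulk values below therefore chose the genes and are given as a description, with no test.

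Organoids here are three-dimensional cultures of primary intestinal epithelium from C57BL/6 mice whose genotype is given as WT. Bulk RNA was measured in 3 conditions, with 3 vehicle and 3 TGFB1 libraries in each: no irradiation and collection at D7, and 4 Gy on day 4 with collection either at D7 or at D11. Vehicle or 2 ng/mL TGFB1 was added on day 6 and lasted 24 h. D7 libraries were therefore taken as treatment ended, and D11 libraries days after it. Single-cell RNA-seq covered irradiated organoids at day 8 (D8; 4 Gy on day 4), with vehicle (called 0 h) or with 1 ng/mL TGFB1 for the last 6, 15 or 24 h, as 1 library each. It also covered Ki67-RFP+ cells sorted from crypts of the proximal small intestine of Mki67tm1.1Cle/J mice, as 1 library from a non-irradiated littermate and 2 libraries taken 56 h after 12 Gy to the whole body. In these mice the red fluorescent reporter is expressed from the Ki67 locus, so the sort keeps cycling cells. The labels do not say whether the replicates of a group came from separate cultures, so p-values below measure the spread between these libraries, which may be technical.

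TGFB1 is a secreted cytokine that binds a complex of type I and type II receptor kinases, which phosphorylate SMAD2 and SMAD3. These enter the nucleus with SMAD4 and act on target genes, often beside AP-1 factors at the same regulatory regions. In intestinal epithelium the pathway is known for restraining proliferation and for its part in wound repair.

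The 11 genes lie on 11 chromosomes. RefSeq promoter windows (250 bases before to 50 after an annotated start, build GRCm38.p6) were found for 9 of them, all but Fabp5 and Tmem158. Counts use the first window listed for each gene. The SMAD box CAGACA, read on both strands, occurred in 5 of the 9 windows (Ly6c1, Ccdc92, Cited4, Cbs and Hist1h4i) and in 21.0% of all 27025 windows. In Ccdc92 and Cbs it lay before the start, at -25 and -170. The AP-1 site TGANTCA occurred in 2 of 9, Efemp1 at -154 and Kcne3 at -37, and in 7.93% of all windows. The interferon response element (GAAA, 2 bases of any kind, GAAA) occurred in Ccdc92 at -186 and in Tgm1, against 3.49% of all windows. TATAAA occurred in 3 of 9 (Ly6c1, Cited4 and Hist1h4i; 14.2% of all windows), and the CDX site TTTATNG in Ly6c1 (11.3%), at -144, where it overlapped TATAAA, and at -94, where it did not. The TEAD site ACATTCC (3.85%), the HNF4 site CAAAGTCCA (0.477%) and the retinoic acid element (AGGTCA repeated after 5 bases of any kind; 0.00740%) had no match in the 9 windows. The member windows had a median GC content of 58.0% and 13 CpG, against 52.7% and 7.00 over all windows. Further windows of Ly6c1, Kcne3 and Rab15 also held a SMAD box before the start, at -134 in Ly6c1, -158 in Kcne3 and -250, -185 and -173 in Rab15, which had an AP-1 site at -245 as well. The windows of Ly6c1 overlap, and its match at -134 is the same run of bases as the match at 41 in its first window. A match is a run of letters and does not show that a factor binds there. The 250 bases before the start are shown for the 4 genes whose first window holds an AP-1 site or a SMAD box before the start, 5′ to 3′ on the gene's strand, with the AP-1, SMAD box and interferon element matches in capitals. They are Efemp1 (chr11:28852955-28853204, plus strand), Kcne3 (chr7:100176420-100176669, plus strand), Ccdc92 (chr5:124862222-124862471, minus strand) and Cbs (chr17:31637206-31637455, minus strand).
Efemp1: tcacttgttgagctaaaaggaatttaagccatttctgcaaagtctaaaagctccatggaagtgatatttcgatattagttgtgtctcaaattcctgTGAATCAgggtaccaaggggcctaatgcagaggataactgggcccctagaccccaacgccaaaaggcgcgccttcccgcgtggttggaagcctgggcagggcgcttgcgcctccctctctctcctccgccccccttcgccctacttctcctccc
Kcne3: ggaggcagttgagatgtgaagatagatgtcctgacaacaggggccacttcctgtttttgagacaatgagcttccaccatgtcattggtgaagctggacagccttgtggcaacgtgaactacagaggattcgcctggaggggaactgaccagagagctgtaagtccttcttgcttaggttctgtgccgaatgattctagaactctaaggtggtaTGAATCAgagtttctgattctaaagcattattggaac
Ccdc92: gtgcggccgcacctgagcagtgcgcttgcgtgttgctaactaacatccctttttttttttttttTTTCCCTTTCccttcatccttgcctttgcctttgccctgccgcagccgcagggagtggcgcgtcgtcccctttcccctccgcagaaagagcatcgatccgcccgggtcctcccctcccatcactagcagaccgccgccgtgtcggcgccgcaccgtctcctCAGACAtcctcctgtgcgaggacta
Cbs: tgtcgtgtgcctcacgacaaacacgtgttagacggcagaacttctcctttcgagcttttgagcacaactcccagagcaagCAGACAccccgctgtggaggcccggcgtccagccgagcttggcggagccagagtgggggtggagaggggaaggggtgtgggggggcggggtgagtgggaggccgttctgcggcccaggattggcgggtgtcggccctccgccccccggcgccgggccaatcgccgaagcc

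The bulk libraries listed between 11040 and 11361 genes above 1 FPKM, and their FPKM summed to between 447728 and 621996. Each of the 3 conditions was deposited as its own table. The tables appear to have been normalized separately, which is not stated, so levels set across tables below carry that limit. At D11 the summed endothelial markers were 14.4 to 16.2 FPKM with vehicle and 2.96 to 4.75 FPKM with TGFB1, with Pecam1, Cdh5, Kdr and Tie1 under 0.1 FPKM. The summed mesenchymal markers went from 5.35 to 7.06 FPKM to 2.84 to 4.21 FPKM, with Col1a1, Col1a2, Col3a1 and Pdgfra under 0.1 FPKM. The summed immune markers went from 6.56 to 9.89 FPKM to 12.1 to 14.6 FPKM, with Ptprc, Cd3e, Cd79a and Tyrobp under 0.1 FPKM. Against these, the enterocyte markers summed to 3844 to 6612 FPKM with vehicle and 2499 to 2910 FPKM with TGFB1, and the goblet cell markers to 3275 to 3986 and 2394 to 2615 FPKM. Gene by gene (limma, D11), 1 of the 12 enterocyte markers rose and 7 fell, with a median of -0.64. Of the 11 goblet cell markers 3 rose and 5 fell, with a median of 0.12, so the lower goblet sum does not hold for each marker. The part of these shifts in the differences below was not tested. In bulk organoids, fewer cells of a type and less RNA per cell cannot be told apart.

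All 11 genes had every D11 TGFB1 library above every D11 vehicle library. The rule used this contrast, so nothing is read from that count, and over all 11479 genes tested at D11 35.8% were higher in this way. The summed FPKM of the 11 genes was 57.3 to 60.9 in the D11 vehicle libraries, 297.8 to 318.6 in the D11 TGFB1 libraries and 104.8 to 172.2 in the 12 D7 libraries. The D11 vehicle libraries had the lowest sum and the D11 TGFB1 libraries the highest. The rule used these values too, so nothing is read from this order, which also crosses tables. Kcne3, with D11 means of 25.3 FPKM with vehicle and 125 FPKM with TGFB1, was the largest part of both D11 sums. Not every gene followed the order: Hist1h4i had a mean of 6.53 FPKM with TGFB1 at D11 and 9.63 FPKM with vehicle in irradiated D7 organoids.

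**Figure D1:**
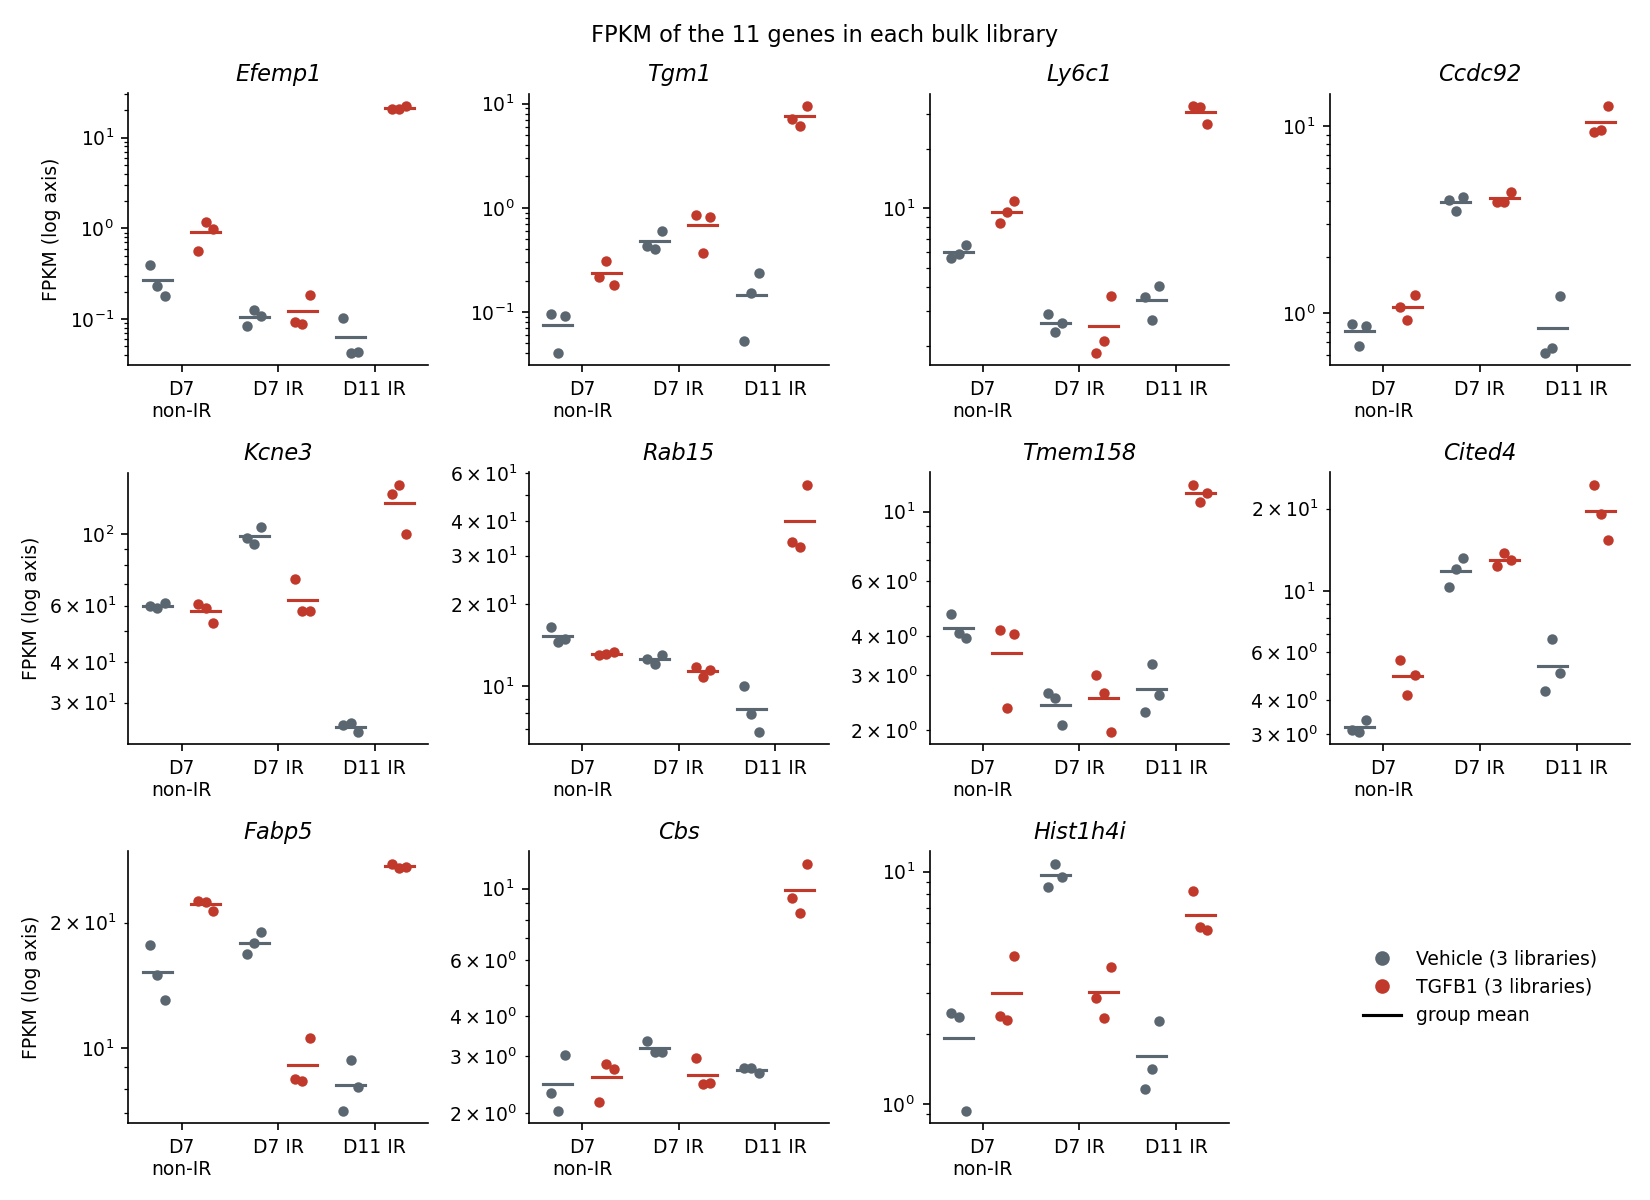
FPKM of the 11 genes in each of the 18 bulk libraries on a logarithmic axis, by condition, with vehicle and TGFB1 libraries marked apart. At D11 the TGFB1 libraries of each gene lie above its vehicle libraries, and the distance is widest for Efemp1.

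"Only at D11" did not describe the D7 libraries of every gene. In non-irradiated D7 organoids 6 of the 11 genes (Efemp1, Tgm1, Ly6c1, Ccdc92, Cited4 and Fabp5) had all TGFB1 libraries above all vehicle libraries, with differences of 0.20 to 0.60 that lay under the limit of the rule. Of the 8 genes tested there 3 were higher in this way (Ly6c1, Cited4 and Fabp5), against 35.3% of all 11330 genes tested. Rab15 was the gene with all TGFB1 libraries below vehicle there, against 36.8% of genes. In irradiated D7 organoids 0 of 11 were higher without overlap (37.1% of the 11258 genes tested there) and 5 were lower without overlap (Kcne3, Rab15, Fabp5, Cbs and Hist1h4i; 41.1%). The rule used these contrasts too, and nothing is read from the counts. A mean of at least 1 FPKM over a table, required for a fit, was reached by all 11 genes at D11, by 9 in irradiated D7 organoids (not Efemp1 or Tgm1) and by 8 in non-irradiated D7 organoids (not Efemp1, Tgm1 or Ccdc92).

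**Figure D2:**
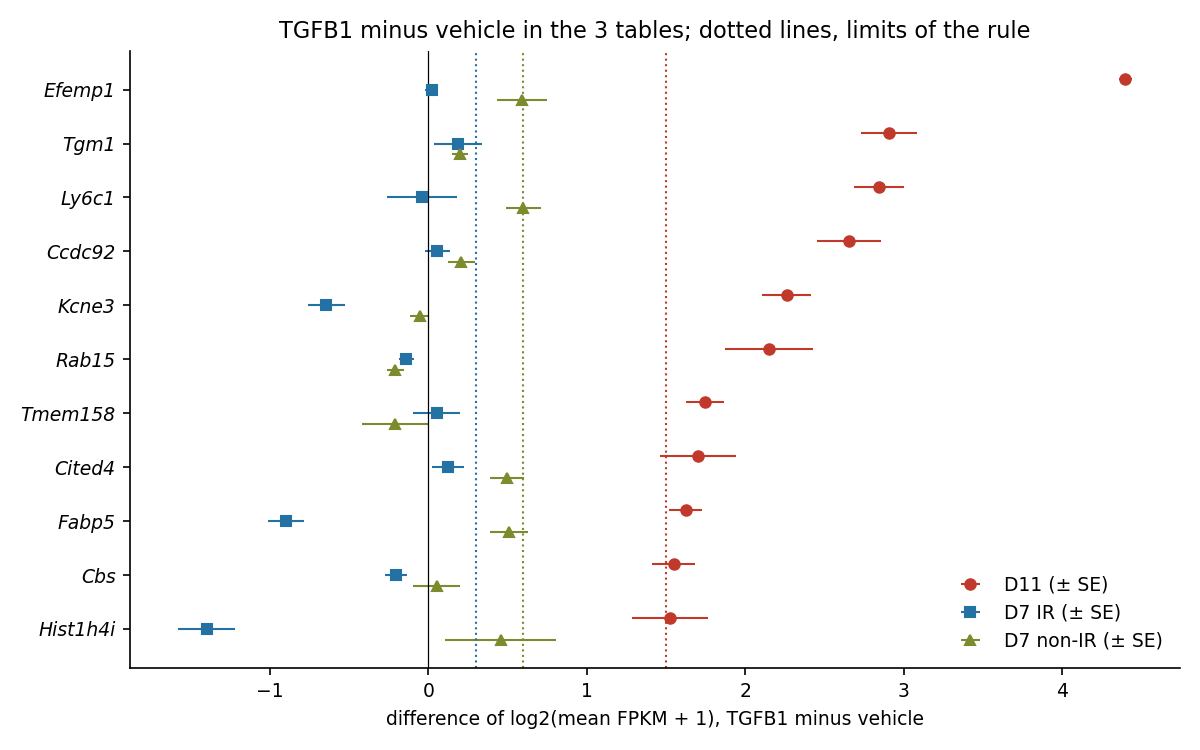
Difference of log2(mean FPKM + 1), TGFB1 minus vehicle, for each gene in the 3 conditions, with its standard error from 3 libraries a group and the limits of the rule as lines. Kcne3, Fabp5 and Hist1h4i lie furthest below 0 in irradiated D7 organoids, at -0.64, -0.90 and -1.40.

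The levels behind the D11 differences took more than 1 form. In 7 genes (Efemp1, Tgm1, Ly6c1, Ccdc92, Rab15, Tmem158 and Cbs) the D11 TGFB1 mean was at least 1 log2 unit above the highest of the 4 D7 group means, as in 0.880% of the genes tested. In Kcne3 the D11 vehicle mean was at least 1 log2 unit below the lowest D7 group mean, as in 0.183%. Cited4, Fabp5 and Hist1h4i met neither description. The rule used these means as well, so the classes only sort the genes.

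Efemp1 encodes a secreted fibulin of the extracellular matrix. At D11 it was at 0.103, 0.0425 and 0.0432 FPKM with vehicle and at 20.9, 21.0 and 22.4 FPKM with TGFB1. It thus went from near 0 to a moderate level in every TGFB1 library, a difference of 4.40 (SE 0.042) and a ratio of means of 341, the largest of the 11 genes. In irradiated D7 organoids it was at 0.0846, 0.126 and 0.107 FPKM with vehicle and 0.0919, 0.0893 and 0.183 FPKM with TGFB1, which overlapped near 0. In non-irradiated D7 organoids it was at 0.397, 0.232 and 0.179 FPKM with vehicle and 0.569, 1.18 and 0.979 FPKM with TGFB1. The groups did not overlap and their means stood at a ratio of 3.38, which the pseudocount of 1 turned into a difference of 0.59.

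The other fibulin genes tested went the other way. Efemp2, which is needed for elastic fibre assembly, fell at D11 from 3.56 to 1.90 FPKM (limma, -0.65, adjusted p = 0.00352). Fbln1, another secreted fibulin, went from 53.7 to 45.5 FPKM (-0.24, adjusted p = 0.0125). Of 14 extracellular matrix genes tested, Efemp1 included, 12 rose and 2 fell at D11, with a median of 2.42 against 0.01 over all genes. Fn1, which encodes fibronectin, rose from 0.299 to 38.0 FPKM (4.87, adjusted p = 3.14e-07), and its change exceeded that in irradiated D7 organoids (interaction 2.22, adjusted p = 2.39e-06). Thbs1, a matricellular glycoprotein, rose by 4.27 at D11 and by 4.16 at D7 (interaction adjusted p = 0.643). Lama3, a laminin chain of the epithelial basement membrane, rose by 2.80 at D11 and by more, 4.86, at D7 (interaction -2.06, adjusted p = 1.19e-07).

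Tgm1 encodes the transglutaminase that crosslinks the cornified envelope of stratified epithelium. The D11 libraries stood at 0.0524, 0.153 and 0.235 FPKM with vehicle and at 7.18, 6.15 and 9.52 FPKM with TGFB1, a difference of 2.91 (SE 0.18). All vehicle libraries were near 0 and none approached the TGFB1 libraries. Irradiated D7 organoids had 0.431, 0.401 and 0.593 FPKM with vehicle and 0.849, 0.370 and 0.824 FPKM with TGFB1, where 1 TGFB1 library lay below all vehicle libraries. Without irradiation all D7 libraries were under 0.31 FPKM, with TGFB1 higher than vehicle at a ratio of means of 3.12.

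Of the stratified squamous genes, 15 were tested at D11, Tgm1 included, and 11 rose while 0 fell, with a median of 0.93. Of the 17 tested for the interaction (the D11 change minus the irradiated D7 change), 5 were higher and 7 lower. Tgm1 is among the 5, but the rule chose it by both of these changes, so nothing is read from its call. Krt4, a keratin of stratified mucosa, rose from 0.752 to 89.3 FPKM at D11 (5.71, adjusted p = 4.28e-08), while its irradiated D7 means were 0.608 and 1.19 FPKM (interaction 5.29, adjusted p = 1.6e-09). Anxa8, an annexin of squamous epithelium, rose by 5.51 at D11 (adjusted p = 1.27e-05), and the test of its difference from D7 did not pass (0.70, adjusted p = 0.0849). Cnfn, the cornified envelope protein cornifelin, rose from 0.682 to 9.58 FPKM (2.49, adjusted p = 0.0228, interaction adjusted p = 0.0594). Among the transglutaminases, Tgm2, the tissue enzyme that crosslinks matrix proteins, fell at D11 from 70.2 to 34.1 FPKM (-1.02, adjusted p = 3.37e-05).

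Ly6c1 encodes a small GPI-anchored surface protein that is known from monocytes, lymphocytes and endothelium. Its D11 libraries stood at 3.57, 2.72 and 4.02 FPKM with vehicle and 33.1, 32.6 and 26.8 FPKM with TGFB1, a difference of 2.84 (SE 0.16) and a ratio of 8.98. Irradiated organoids at D7 had 2.91, 2.36 and 2.61 FPKM with vehicle and 1.85, 2.12 and 3.60 FPKM with TGFB1. These overlapped with each other and with the D11 vehicle libraries. Without irradiation, the D7 libraries went from 5.61, 5.89 and 6.501 FPKM to 8.39, 9.56 and 10.9 FPKM without overlap, a difference of 0.60 that lay just under the limit of the rule.

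Of 7 Ly6 family genes tested at D11, Ly6c1 included, 5 rose and 1 fell. Ly6a, which encodes Sca-1, a marker of regenerating intestinal epithelium, and is a neighbour of Ly6c1 on the chromosome, rose from 47.2 to 248 FPKM (2.37, adjusted p = 5.38e-07), more than at D7 (interaction 1.63, adjusted p = 1.13e-06). Psca, another GPI-anchored member, rose by 1.89 (adjusted p = 0.0037, interaction adjusted p = 0.216). Lypd8, which keeps flagellated bacteria from the colonic epithelium, rose by 1.09 (adjusted p = 0.000107), by less than at D7 (interaction -0.72, adjusted p = 0.00143). Ly6c2, a near-identical copy of Ly6c1, was listed at 0 FPKM with vehicle and had a mean of 0.047 FPKM with TGFB1 at D11. How reads were shared between the copies is not stated.

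Kcne3 encodes a beta subunit of voltage-gated potassium channels, which with Kcnq1 supports chloride secretion by crypt cells. It had the highest levels of the 11 genes. At D11 it was at 25.5, 25.9 and 24.3 FPKM with vehicle and 133, 142 and 100 FPKM with TGFB1, a difference of 2.26 (SE 0.16). In irradiated D7 organoids the order was the reverse, with 97.5, 93.1 and 105 FPKM with vehicle and 72.4, 57.9 and 57.7 FPKM with TGFB1. The vehicle mean of irradiated organoids was thus lower at D11 than at D7, a difference of -1.92 log2 units across tables that appear normalized separately. In non-irradiated D7 organoids all 6 libraries lay between 53.05 and 61.1 FPKM and the groups overlapped.

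Of the KCNE subunits, partners and ion transporters of the crypt, 10 were tested at D11, Kcne3 included, and 3 rose while 6 fell. Its partner Kcnq1 had a difference of -0.24, and Cftr, the chloride channel of crypt secretion, -0.63. Ano1, a calcium-activated chloride channel, rose from 5.19 to 38.8 FPKM (2.69, adjusted p = 4.67e-07), with 2.90 at D7 (interaction adjusted p = 0.28). Slc26a6, an anion exchanger of villus enterocytes, fell from 43.1 to 13.3 FPKM (-1.58, adjusted p = 0.000195). Slc9a3, the sodium-proton exchanger of the brush border, fell from 5.98 to 2.701 FPKM (-0.90, adjusted p = 0.000248), with 0.24 at D7 (interaction -1.14, adjusted p = 9.9e-06).

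Rab15 encodes a small GTPase of the recycling endosome. With vehicle it was at 10.0, 7.90 and 6.83 FPKM at D11, and with TGFB1 at 33.6, 32.2 and 54.4 FPKM, a difference of 2.15 (SE 0.28). TGFB1 replicate 3 stood above the other TGFB1 libraries, which gave Rab15 the largest error of the 11 genes. At D7 it was, in irradiated organoids, at 12.6, 12.1 and 13.1 FPKM with vehicle and 11.8, 10.8 and 11.4 FPKM with TGFB1, and in non-irradiated D7 organoids at 16.5, 14.6 and 15.0 FPKM and at 13.02, 13.1 and 13.3 FPKM. In both D7 conditions the TGFB1 libraries were lower without overlap, with differences of -0.14 and -0.21. Rep15, the Rab15 effector protein, followed the same order: it rose at D11 from 3.08 to 7.88 FPKM (1.13, adjusted p = 5.92e-05) and fell in irradiated D7 organoids (-0.44), with an interaction of 1.56 (adjusted p = 1.48e-06).

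Of 12 Rab trafficking genes tested at D11, Rab15 included, 6 rose and 2 fell. Rab27b, a GTPase of regulated secretion, rose by 1.04 at D11 and by more, 1.72, at D7 (interaction -0.68, adjusted p = 0.00512). Rab4a, a GTPase of fast recycling, fell from 90.9 to 19.7 FPKM (-2.14, adjusted p = 4.33e-07). Next to Rab15 on chromosome 12 lies Gpx2, the gastrointestinal glutathione peroxidase, which rose at D11 from 335.2 to 1876 FPKM (2.49, adjusted p = 4.46e-07). Gpx2 missed the rule for its difference of 0.83 in non-irradiated D7 organoids, where Rab15 was lower with TGFB1.

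Tmem158 encodes a transmembrane protein known as a RAS-induced senescence gene. At D11 it was at 2.28, 3.24 and 2.59 FPKM with vehicle and 12.2, 10.7 and 11.4 FPKM with TGFB1, a difference of 1.75 (SE 0.12). It had overlapping groups in both D7 conditions, at 1.97 to 3.01 FPKM in irradiated and 2.36 to 4.70 FPKM in non-irradiated organoids. Ccdc92 encodes a coiled-coil protein. Its D11 libraries were at 0.616, 0.652 and 1.23 FPKM with vehicle and 9.29, 9.52 and 12.8 FPKM with TGFB1, a difference of 2.65 (SE 0.20). Its D7 levels differed by irradiation: the 6 irradiated libraries lay at 3.53 to 4.48 FPKM and the 6 non-irradiated libraries at 0.673 to 1.25 FPKM. The D11 vehicle libraries were thus close to the non-irradiated D7 libraries, in tables that appear normalized separately.

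Cited4 encodes a transcriptional coactivator that binds CBP and p300. At D11 it was at 4.33, 6.68 and 5.02 FPKM with vehicle and 24.4, 19.1 and 15.4 FPKM with TGFB1, a difference of 1.70 (SE 0.24). Irradiated organoids at D7 had 10.4, 12.1 and 13.2 FPKM with vehicle and 12.3, 13.8 and 12.95 FPKM with TGFB1. These overlapped and lay between the D11 groups. Non-irradiated D7 organoids went from 3.10, 3.07 and 3.38 FPKM to 5.58, 4.18 and 4.93 FPKM without overlap. Of 5 genes of the CITED family list tested at D11, 1 rose and 2 fell: Cited2, a negative regulator of HIF1 activity, fell from 130.6 to 66.0 FPKM (-0.97, adjusted p = 1.8e-05), and Cited1, a coactivator known to bind SMAD4, fell by 1.08 (adjusted p = 0.00315). The change of Cited2 differed from that at D7, which was 0.18 (interaction -1.15, adjusted p = 4.84e-07).

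Hist1h4i is 1 of the replication-dependent histone H4 genes, which encode the same protein. The libraries at D11 were at 1.16, 1.41 and 2.28 FPKM with vehicle and 8.22, 5.77 and 5.6 FPKM with TGFB1, a difference of 1.53 (SE 0.24). Irradiated D7 organoids had 8.59, 10.8 and 9.50 FPKM with vehicle and 2.86, 2.35 and 3.89 FPKM with TGFB1, the reverse order. In non-irradiated D7 organoids 5 of the 6 libraries lay between 0.933 and 2.45 FPKM and TGFB1 replicate 3 at 4.31 FPKM. Beside this, the summed proliferation markers were 1081 to 1101 FPKM with vehicle and 300.9 to 357.1 FPKM with TGFB1 in irradiated D7 organoids. At D11 they were 1020 to 1095 FPKM with vehicle and 1038 to 1170 FPKM with TGFB1, which overlapped. The part of proliferation in these differences was not tested. The other H4 genes tested at D11, Hist1h4d and Hist2h4, did not pass (0.47, adjusted p = 0.355, and 0.63, adjusted p = 0.221). Reads from H4 copies are alike, so their split between genes is uncertain.

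Fabp5 encodes a fatty acid binding protein of skin and many other epithelia. Its level at D11 was 7.09, 9.37 and 8.09 FPKM with vehicle and 27.6, 27.0 and 27.2 FPKM with TGFB1, a difference of 1.62 (SE 0.10). In irradiated D7 organoids the order was the reverse, from 16.8, 17.9 and 19.0 FPKM with vehicle to 8.43, 8.37 and 10.6 FPKM with TGFB1. Non-irradiated organoids went from 17.7, 14.9 and 13.1 FPKM up to 22.6, 22.4 and 21.3 FPKM. The 3 conditions thus gave non-overlapping groups in different directions. The enterocyte fatty acid binding proteins fell at D11: Fabp1, the liver form, from 938 to 451 FPKM (-0.99, adjusted p = 0.00562) and Fabp2, the intestinal form, from 89.6 to 46.4 FPKM (-0.92, adjusted p = 0.000119).

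Cbs encodes cystathionine beta-synthase, the first enzyme of transsulfuration, which turns homocysteine into cystathionine. Its level at D11 was 2.76, 2.76 and 2.66 FPKM with vehicle and 9.37, 8.40 and 11.9 FPKM with TGFB1, a difference of 1.55 (SE 0.14). In irradiated D7 organoids it went from 3.34, 3.10 and 3.10 FPKM to 2.96, 2.46 and 2.47 FPKM, lower without overlap, and in non-irradiated D7 organoids all libraries lay between 2.03 and 3.03 FPKM with overlap. Of 14 genes of transsulfuration, the methionine cycle and glutathione synthesis tested, Cbs included, 7 rose and 3 fell at D11, and for the interaction 8 were higher and 1 was lower. The rule chose Cbs by these contrasts, so nothing is read from its own place in the counts. Gclc, the catalytic subunit of the enzyme that starts glutathione synthesis, rose by 1.47 (adjusted p = 3.1e-07), with 0.22 at D7 (interaction 1.25, adjusted p = 7.18e-08). Cth, which acts after Cbs, fell from 43.1 to 20.1 FPKM (-1.06, adjusted p = 3.27e-06), with -1.18 at D7 (interaction adjusted p = 0.245). Mpst, a mitochondrial sulfurtransferase, fell from 63.9 to 17.6 FPKM (-1.81, adjusted p = 9.9e-07, interaction -1.07).

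**Figure D3:**
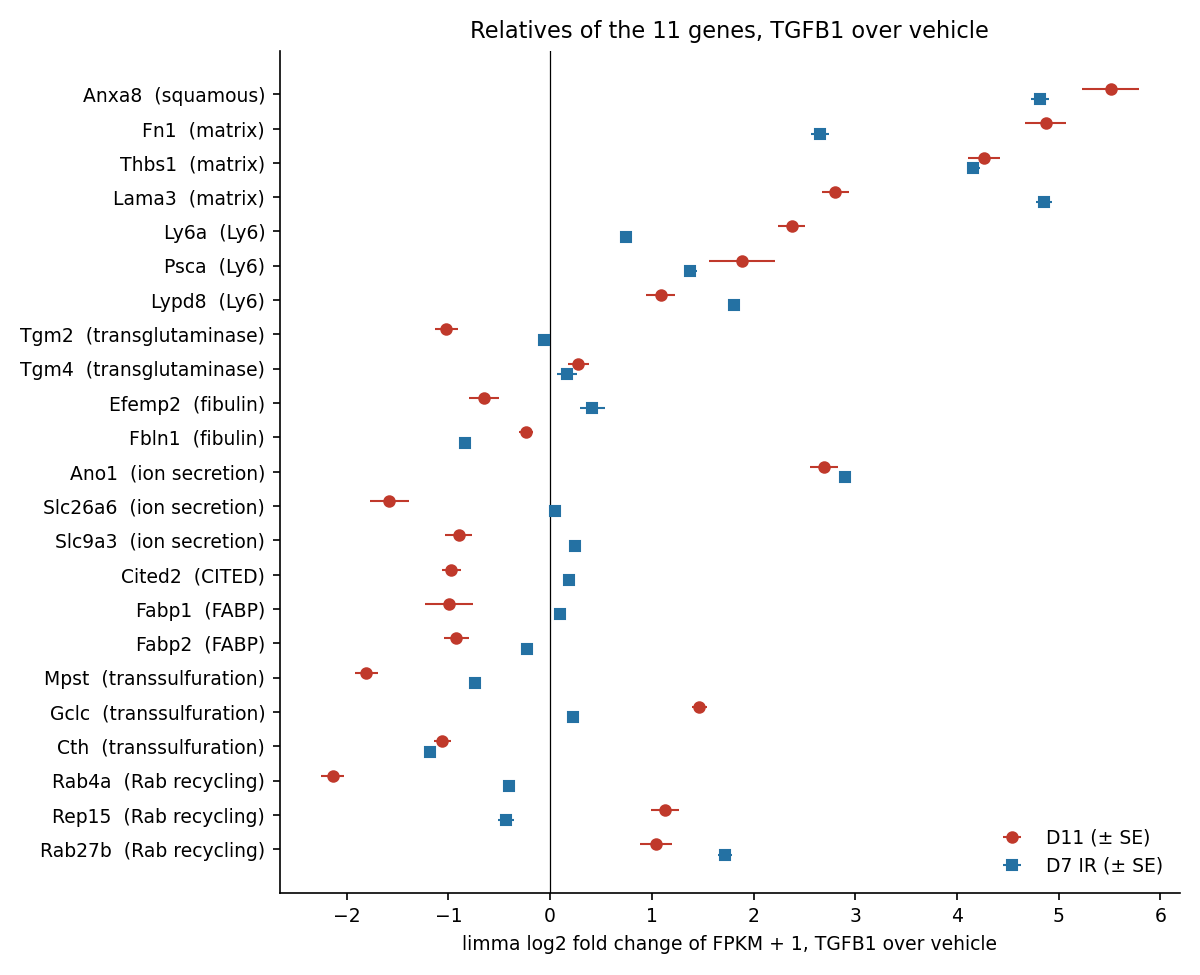
log2 change with TGFB1 at D11 and in irradiated D7 organoids for the named list genes outside the 11 that were tested at both days, from limma on log2(FPKM + 1), with bars of 1 SE. Fn1, Ly6a, Gclc and Rep15 lie higher at D11 than at D7, and Lama3, Slc26a6 and Rab4a lie lower.

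For scale, over all genes tested limma called 7335 of 11479 at D11 (63.9%; 32.3% higher and 31.6% lower), 8495 of 11258 in irradiated D7 organoids (75.5%; 35.8% higher and 39.7% lower), 7732 of 11330 in non-irradiated D7 organoids (68.2%; 33.3% higher and 34.9% lower) and 7387 of 11456 for the interaction (64.5%; 31.5% higher and 33.0% lower at D11). The family lists were assembled after the 11 genes were known. Counts of lists that hold a member include it. The rule had set the direction of that member at D11 and for the interaction, so nothing is read from its place in them. Genes of the TGFB feedback list rose in 13 of 16 tested at D11, with a median of 0.77, and for the interaction 10 of 15 were lower and 1 was higher. Of 20 regenerative and fetal epithelium genes 18 rose at D11, with a median of 2.61, and for the interaction 9 were higher and 8 lower. Of 44 genes next to the 11 on the chromosome, 2 on each side, 26 were tested, and 10 rose and 7 fell at D11.

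Genes just past the limits had similar values. Gclc at 1.47, Ern2, an endoplasmic reticulum stress sensor of mucous cells, at 1.46 and Spdef, the goblet cell transcription factor, at 1.45 missed the D11 limit of 1.5, while Hist1h4i at 1.53, Cbs at 1.55 and Fabp5 at 1.62 met it. Cpne2 at 0.38, Entpd3 at 0.44 and Tmem184c at 0.49 missed the limit for irradiated D7 organoids, where the nearest inside was Tgm1 at 0.19. Gpx2-ps1 at 0.74, Gpx2 at 0.83 and Rgs19 at 1.00 missed that for non-irradiated D7 organoids, where Ly6c1 at 0.60 and Efemp1 at 0.59 were inside. 1700007K13Rik at 4.94, Ptpn13 at 4.32 and Csf2 at 3.99 FPKM missed the level limit, where Hist1h4i at 6.53 FPKM was nearest inside. The choice of pseudocount mattered for which genes were chosen: with 0.1 in place of 1, 12 genes met the rule and 6 of the 11 were among them, without Efemp1, Tgm1, Ly6c1, Cited4 and Hist1h4i. With group medians in place of means 8 genes met it, 6 of the 11 among them. Ccdc92, Kcne3, Rab15 and Tmem158 met it under all 23 alternatives run.

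The single-cell libraries took no part in the choice of genes. They held 2932, 4283, 2890 and 2218 cells at 0, 6, 15 and 24 h, with median UMI (unique molecular identifier) counts of 8201.5, 6709, 7805 and 10441. The crypt libraries held 1846 non-irradiated and 719 and 699 irradiated cells, with medians of 11968.5, 14399 and 13500 UMIs. At most 1 cell barcode was shared between any pair of libraries. With 1 library a time point, and 1 non-irradiated crypt library, there is no test. Levels are summed over the cells of a library and given as CPM (UMIs scaled to equal library totals), and the 95% intervals cover counting error only.

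In D8 organoids the 11 genes summed to 179.0 CPM (174.0 to 184.1) at 0 h, 213.3 (208.3 to 218.4) at 6 h, 148.5 (143.9 to 153.2) at 15 h and 150.8 (146.5 to 155.3) at 24 h. The sum was thus highest at 6 h and lower than vehicle at 15 and 24 h. In the same libraries the summed regenerative and fetal epithelium genes went from 1299 CPM at 0 h to 1892, 3919 and 6396 CPM, and the proliferation markers from 1102 to 1234, 767.8 and 731.6 CPM. Of the 8 members with enough UMIs for a ratio at 24 h against 0 h, 0 were at least 2-fold higher, against 9.16% of the 13243 genes measured, and 3 were higher by any size, against 55.7%. None was lower by at least 2-fold (3.15% of genes), and 5 were lower by any size (44.3%). The dose and day differ from those of the bulk libraries, so the values stand side by side with them and are not compared.

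Most of that sum was Kcne3, at 102, 122, 89.9 and 87.3 CPM at 0, 6, 15 and 24 h, a ratio of 0.855 (0.811 to 0.902) at 24 h. Fabp5 was at 49.2, 65.6, 34.2 and 32.7 CPM, a ratio of 0.664 (0.611 to 0.721). Both were higher at 6 h and lower at 15 and 24 h than at 0 h. Rab15 was at 7.90, 8.12, 8.44 and 11.1 CPM, with a ratio of 1.40 (1.18 to 1.67) at 24 h. Cited4 was at 3.40, 4.84, 3.92 and 5.00 CPM, a ratio of 1.47 (1.13 to 1.92). These intervals exclude 1 for counting error, with no replicate to set beside them. Cbs was at 5.22, 2.19, 3.03 and 4.98 CPM, Hist1h4i at 7.09, 6.89, 5.39 and 5.77 CPM, Ccdc92 at 2.52, 1.70, 1.90 and 2.55 CPM and Tmem158 at 1.46, 1.45, 1.37 and 1.08 CPM. Cbs was lowest at 6 h, and its ratio at 24 h was 0.953 (0.754 to 1.21), or 0.655 with fractional UMI entries left out. Efemp1 had 1, 2, 1 and 1 UMIs, Tgm1 2, 3, 6 and 9, and Ly6c1 2, 1.5, 1 and 5, too few to show a difference at this depth.

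**Figure D4:**
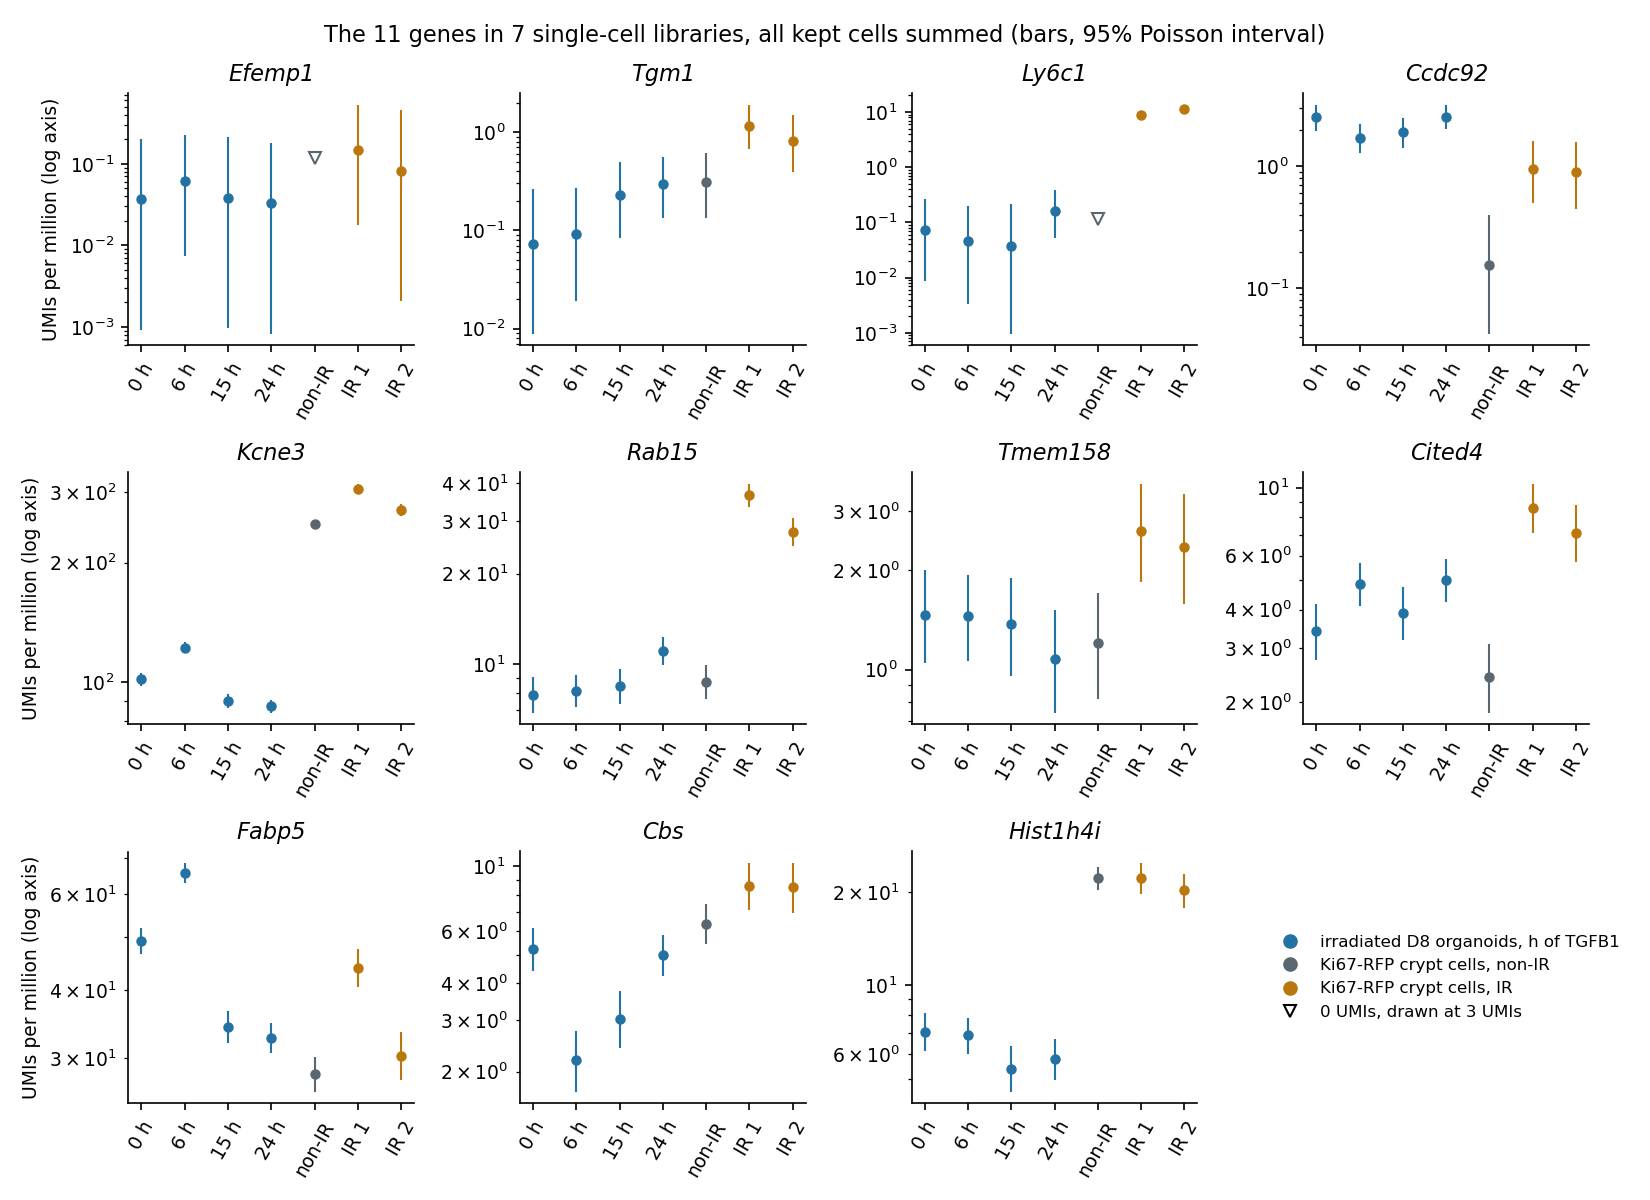
CPM of the 11 genes in the 4 organoid and 3 crypt single-cell libraries on a logarithmic axis, with exact Poisson 95% intervals and an open triangle at the level of 3 UMIs where there were 0. Ly6c1 goes from 0 UMIs in the non-irradiated crypt library to 119.7 and 140.9 in the irradiated libraries.

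In Ki67-RFP+ crypt cells the 11 genes summed to 319.2 CPM (312.3 to 326.2) without irradiation and to 439.1 (428.1 to 450.3) and 380.0 (369.2 to 391.0) in the 2 libraries after 12 Gy. Of the 8 members with enough UMIs, 3 (Ly6c1, Rab15 and Cited4) were at least 2-fold higher in both irradiated libraries, against 12.6% of 14127 genes, and 7 were higher by any size in both, against 53.8%. Ly6c1 reached the required 1 CPM through the irradiated libraries alone, so it had to be higher, and without it the counts are 2 and 6 of 7. None was lower in both, by 2-fold (5.10% of genes) or by any size (33.4%). This contrast is irradiation in mice, without added TGFB1. Ly6c1 had 0 UMIs in the non-irradiated library and 119.7 and 140.9 in the irradiated ones. Set against a floor of 3 UMIs in the non-irradiated library, it was at least 74.8-fold and 98.1-fold higher, and the exact 95% intervals for counting error on 0 UMIs begin at 59.9-fold and 78.7-fold. In bulk organoids at D7, by contrast, the Ly6c1 vehicle mean was lower with irradiation than without, 2.63 against 6.00 FPKM.

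Rab15 was at 8.73 CPM without irradiation and 36.5 and 27.6 CPM after it, ratios of 4.18 (3.56 to 4.91) and 3.16 (2.67 to 3.76). Cited4 was at 2.41, 8.59 and 7.13 CPM, ratios of 3.57 (2.60 to 4.94) and 2.96 (2.12 to 4.17). For both, each irradiated library exceeded the non-irradiated library beyond counting error. Tmem158 was at 1.20, 2.62 and 2.35 CPM (ratios 2.18, 1.31 to 3.64, and 1.95, 1.14 to 3.35). Ccdc92 had 0.155, 0.947 and 0.891 CPM (ratios 6.10, 1.88 to 25.7, and 5.74, 1.70 to 24.7). Tgm1 had 8 UMIs without irradiation and 16 and 10 after it, and the interval of the second ratio (2.61, 0.927 to 7.61) includes 1. Efemp1 had 0, 2 and 1 UMIs.

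The other members differed less between the crypt libraries. Kcne3, at 250, 306 and 271 CPM, had ratios of 1.22 (1.18 to 1.27) and 1.08 (1.04 to 1.13), and Fabp5, at 28.1, 43.9 and 30.3 CPM, had 1.57 (1.40 to 1.75) and 1.08 (0.952 to 1.23). Hist1h4i was at 22.1, 22.2 and 20.2 CPM with ratios of 1.00 and 0.916, whose intervals include 1. Cbs, at 6.37, 8.58 and 8.49 CPM, had ratios of 1.35 and 1.33, which turned to 0.782 and 0.912 when fractional UMI entries were left out, so its direction depends on UMIs shared between genes.

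Ly6c1 UMIs came from 71 of 719 and 72 of 699 irradiated crypt cells (9.87% and 10.3%) and from 0 of 1846 non-irradiated cells, which allows a share of up to 0.163% for cells with a UMI at this depth, not for cells that express the gene. With each cell thinned to 2000 UMIs the shares were 1.67%, 2.15% and 0%. All the cells with a Ly6c1 UMI had Epcam, the epithelial adhesion molecule, as did 99.1% and 98.9% of the other cells, and the endothelial markers Cdh5 and Kdr were at 0 in both. Pecam1, another endothelial gene, was found in 15.5% and 18.1% of Ly6c1 cells and in 17.9% and 18.7% of the others, and Tie1 in 2.82% and 0% against 1.70% and 1.75%. The endothelial list in CPM stood at 1.11 and 0.893 times the level of the other cells, with 3 and 1 of 6 markers higher. Ptprc, the pan-leukocyte gene, was found in 4.23% and 0% against 2.62% and 0.957%, and the immune list stood at 0.349 and 0.360 times. Over all crypt cells the endothelial markers summed to 9.38 CPM without irradiation and to 17.0 CPM in each irradiated library. Ly6a was found in 90.1% and 86.1% of Ly6c1 cells and in 66.7% and 64.1% of the others, and Anxa1, a gene of regenerating epithelium, in 33.8% and 48.6% against 16.4% and 21.2%. Cells with a Ly6c1 UMI were deeper, with medians of 22194 and 24230.5 UMIs against 13376 and 12400, and the part of depth in these shares was not tested. In CPM, the regenerative and fetal epithelium genes were 1.30 and 1.55 times as high in Ly6c1 cells, with 16 and 19 of 20 genes higher. Ly6c2 was found in 5 and 1 of the Ly6c1 cells and in 0 of the 648 and 627 other cells. The Ly6c1 sums of 119.7 and 140.9 UMIs hold fractions, so some of its UMIs were shared between genes. The part of shared UMIs in the Ly6c1 difference was not tested.

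Rab15 was enriched in cells that carried markers of goblet cells, the mucus-secreting cells of the intestine. In CPM, the 11 goblet markers were 11.0, 10.3, 3.55 and 3.20 times as high in cells with a Rab15 UMI as in cells without at 0, 6, 15 and 24 h, and 29.3, 12.4 and 6.52 times as high in the non-irradiated and the 2 irradiated crypt libraries. Between 8 and 11 of the 11 markers were higher in each library. Stem cell and proliferation markers were also higher in cells with a Rab15 UMI in every library. At 15 and 24 h the stem cell markers stood at 2.86 and 2.91 times and the tuft cell markers at 5.51 and 2.08 times. Paneth cell markers were higher in the organoid libraries (1.26 to 2.08 times). In the crypts they stood at 0.564 times without irradiation and at 0.403 and 2.46 times after it. Enteroendocrine markers were higher in the crypt libraries (3.07 to 3.50 times) and at 0 and 6 h (1.26 and 2.38 times). At 15 and 24 h the enteroendocrine markers stood at 0.803 and 0.766 times. Cells with at least 3 goblet markers held 79.1%, 73.9% and 76.0% of the Rab15 UMIs of the crypt libraries, and 50.9%, 36.9%, 21.6% and 41.3% of those at 0, 6, 15 and 24 h. Rab15 was higher after irradiation in these cells, at 20.6, 50.9 and 37.3 CPM, and also in the other cells, at 2.75, 20.3 and 15.2 CPM. These cells made up 27.4%, 39.6% and 40.9% of the cells. The goblet markers themselves summed to 1300, 1767 and 1278 CPM, and the part of goblet cell share in the Rab15 difference was not tested. In organoids the cells with at least 3 markers had 26.7, 36.9, 18.3 and 15.7 CPM of Rab15 at 0, 6, 15 and 24 h, and the other cells 4.57, 5.58, 7.35 and 9.17 CPM. The size of the class moved with the library: it held 11.7%, 6.58%, 8.17% and 21.1% of the cells at 0, 6, 15 and 24 h, while the goblet markers summed to 462.7, 457.3, 323.8 and 445.1 CPM. The part of class size and depth in these levels was not tested. No doublets were called, and free RNA can place UMIs in cells that do not express a gene.

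A Kcne3 UMI was found in 36.2%, 39.2%, 33.0% and 34.5% of organoid cells at 0, 6, 15 and 24 h. In crypts it was found in most cells, 79.8% without irradiation and 82.5% and 77.3% after it. The crypt cells without one were shallower, with medians of 7738, 7616.5 and 7560 UMIs against 13407, 17948 and 16876. They were richer in goblet markers, which stood at 0.260, 0.387 and 0.371 times in cells with a Kcne3 UMI, and in immune markers (0.165, 0.0643 and 0.388 times). Paneth cell markers differed in direction, at 0.143 times without irradiation and 2.91 and 0.457 times after it. Stem cell and proliferation markers were higher in cells with a Kcne3 UMI. Cells with a Kcne3 UMI had 5.38, 4.09, 3.78 and 4.30 times the stem cell marker level of the other cells at 0, 6, 15 and 24 h, and 3.32, 2.43 and 2.10 times in the crypt libraries, with 8 of 8 markers higher in each of the 7 libraries. The proliferation markers were 2.92 to 3.53 times as high in organoids and 1.49 to 1.63 times in crypts. Enterocyte markers were at 0.148 to 0.234 times in organoids and at 0.175 to 0.365 times in crypts, with 0 of 12 markers higher in each library. Cells with a UMI of Fabp5, Cited4 or Hist1h4i also had more of the proliferation markers and less of the enterocyte markers in CPM in all 7 libraries. Cells with a UMI of these genes were deeper in every library, for Kcne3 by medians of 10166.5 against 7258 UMIs at 0 h, and the ratios are of CPM for that reason. In bulk, the summed stem cell markers went from 993.5 to 1026 FPKM with vehicle to 443.6 to 547.5 FPKM with TGFB1 in irradiated D7 organoids, where Kcne3 was lower with TGFB1. At D11 the stem cell markers were at 614.1 to 791.5 FPKM with vehicle and 776.5 to 979.7 FPKM with TGFB1, which overlapped. By limma 3 of the 8 stem cell markers rose and 3 fell at D11, with a median of 0.05. In irradiated D7 organoids 1 of these markers rose and 5 fell, with a median of -1.04. Their part in the differences of Kcne3 was not tested.

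**Figure D5:**
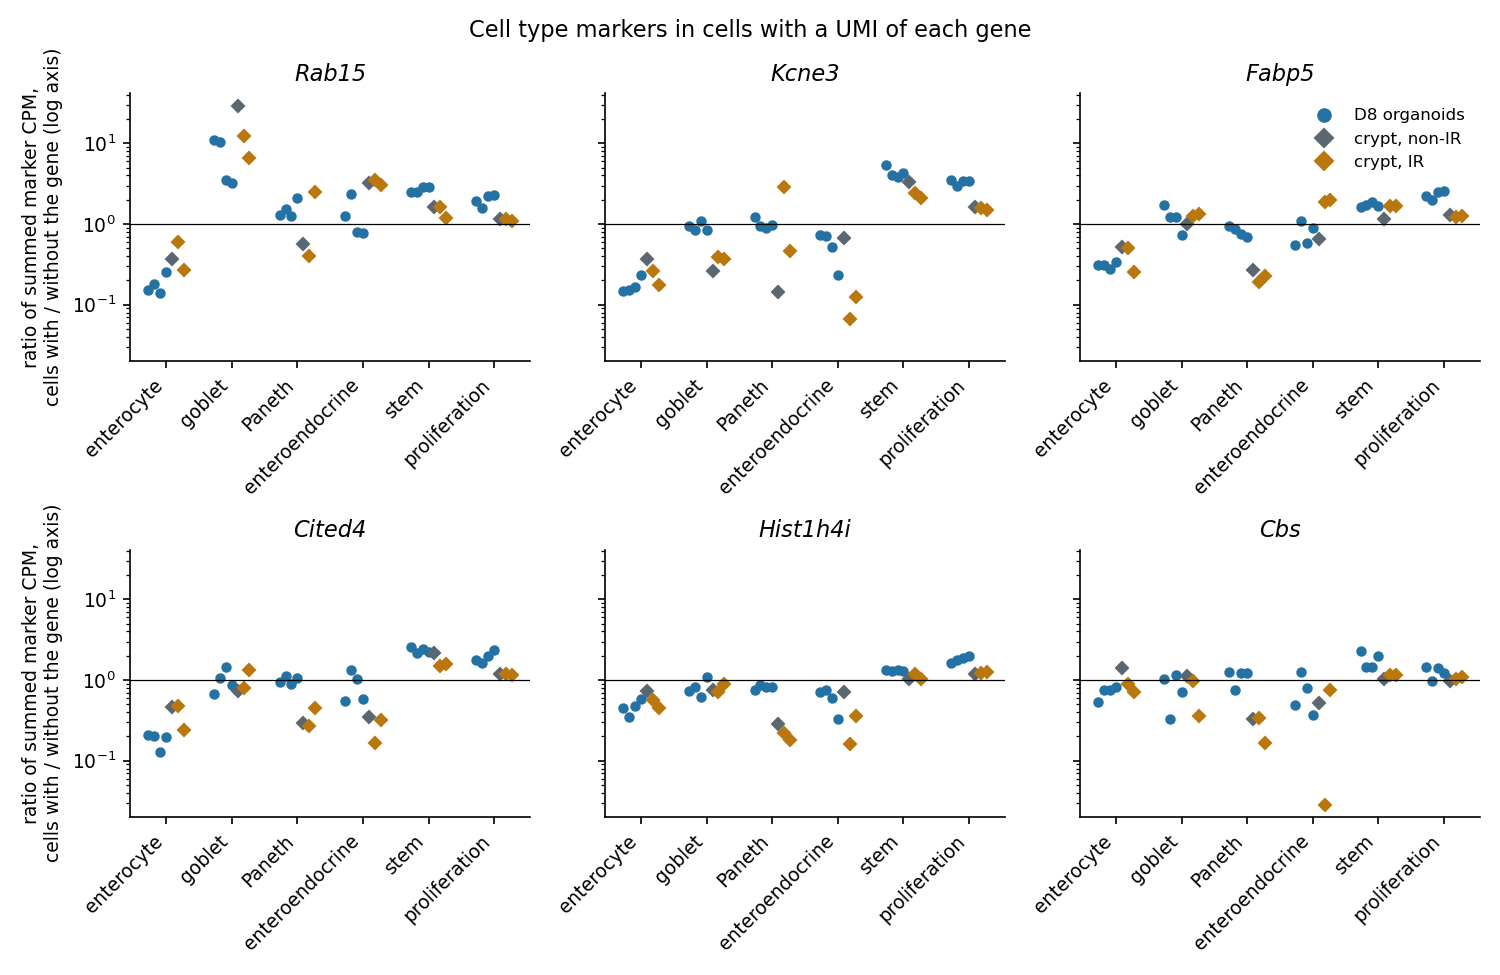
Ratio of summed marker CPM in cells with a UMI of a gene to that in cells without, on a logarithmic axis, for 6 of the 11 genes in each of the 7 single-cell libraries. Goblet markers stand above 1 for Rab15, from 3.20 to 29.3, and stem cell markers above 1 for Kcne3, from 2.10 to 5.38.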

How the data were processed

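Bulk RNA-seq of 18 organoid libraries and single-cell RNA-seq of 7 libraries were used. The bulk values are FPKM, which the authors deposited as 1 table per condition, with no read counts, so depth is unknown. The submitters' processing notes list TopHat2 2.1.0, Cuffnorm 2.2.1 and Cuffdiff 2.2.1, with no statement of which step each one served. The single-cell values are expected counts of UMIs from the authors, deposited as 1 matrix per library, with fractions where a UMI was shared between genes. Per the labels the chemistry was PIPseq T2 v2.1, and STARsolo and STAR 2.7.10a are listed in the submitters' processing notes. The ATAC peaks were not used here, since no annotation of their build was at hand.

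The 11 genes, the gene lists and the tests were chosen with earlier results of these data known. Named genes are the members, the 3 genes nearest each limit on either side, up to 4 genes with the largest called D11 changes on each pathway list, and the retinoid genes. Of this, lists that hold no member are given as counts, with the largest changes of the retinoid list. Family lists were added after the members were seen, and genes named beyond the rule (partners, neighbours and other histone H4 genes) were chosen after their values were seen. A gene of the ion secretion list is not reported here. FPKM were tested as log2(FPKM + 1) with limma 3.58.1 (R 4.3.3; trend, robust empirical Bayes, two-sided), in each table separately, leaving out genes whose mean was under 1 FPKM. Calls are Benjamini-Hochberg adjusted p under 0.05. The interaction used the 12 irradiated libraries. The script was tested on simulated data with known changes. A cell was kept if it had 500 UMIs and 250 genes or more and no more than 20% of UMIs from mitochondrial genes. No doublets were called. CPM have exact Poisson intervals and ratios exact conditional intervals, both at 95%, for counting error only, and genes need a mean of at least 1 CPM to be counted. Replicate numbers were not used as pairs in the main fits. Alternatives were other pseudocounts, filters, scalings, cell filters, left-out libraries and a replicate block.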

Additional observations from a re-analysis of the deposited data

Results flagged for a closer look

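In these genes outside the 11, all taken from the pathway and family lists, the change with TGFB1 differed between D11 and irradiated D7 organoids by a test of the difference itself (limma interaction, adjusted p under 0.05, 18 of 26 named list genes, 6 higher at D11 and 12 lower). Over all genes tested, 64.5% passed this test, so passing it does not set these genes apart. The values below are the D11 change minus the D7 change in log2 units.

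The change was higher at D11 for Krt4, a keratin of stratified mucosa, by 5.29, for Fn1 (fibronectin) by 2.22, for Ly6a (Sca-1) by 1.63, for the Rab15 effector Rep15 by 1.56, for the glutathione synthesis enzyme Gclc by 1.25 and for the secreted fibulin Fbln1 by 0.60. It was lower at D11 for the laminin chain Lama3 (-2.06), the matrix crosslinking enzyme Tgm2 (-0.96), the fibulin Efemp2 (-1.06) and the surface protein Lypd8 (-0.72). Among transporters and trafficking genes it was lower for the anion exchanger Slc26a6 (-1.63), the brush border sodium-proton exchanger Slc9a3 (-1.14), the recycling GTPase Rab4a (-1.74) and the secretory GTPase Rab27b (-0.68). It was also lower for the coactivator Cited2 (-1.15), for the enterocyte fatty acid binding proteins Fabp1 (-1.09) and Fabp2 (-0.69), and for the sulfurtransferase Mpst (-1.07). A higher value need not be a rise: Fbln1 fell with TGFB1 at D11, but by less than at D7. Likewise Lama3, Lypd8 and Rab27b rose at D11, but by less than at D7.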

How the results depend on the processing

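With a minimum change of 2-fold, 1574 genes were called at D11, 1484 in irradiated and 956 in non-irradiated D7 organoids, and 1880 for the interaction, since this adds a size limit. With single-cell entries that are whole numbers only, the summed CPM of the 11 genes was 193.1, 229.5, 159.9 and 167.3 by hours of TGFB1 (0, 6, 15, 24). It was 366.0 without irradiation and 550.3 and 466.9 after it in crypts, where the Cbs ratios turned to 0.782 and 0.912. With cells of at least 5000 UMIs the sum at 6 h was 223.5 CPM. The cause of these single-cell shifts was not tested. Leaving out 1 library at a time gave 6464 to 7591 calls at D11, 8100 to 8265 and 7218 to 7596 in irradiated and non-irradiated D7 organoids, 6937 to 7715 for the interaction, and 9 to 12 genes meeting the rule, with every member among them in 9 of the 18 settings. Ly6c1 and Hist1h4i were lost most often, in 3 each; without D11 vehicle replicate 1, for example, Hist1h4i was lost. Deviations of same-numbered vehicle and TGFB1 libraries from their group means had correlations of -0.09 to 0.21, against -0.17 to 0.20 for differently numbered ones. This gave no ground for pairing libraries by number, but with 3 libraries a group it cannot show that they were unpaired. A replicate block gave 7351, 8417, 7701 and 7396 calls and the same 11 genes. Median-ratio scaling gave 7315 calls at D11 (3594 higher, 3721 lower) and 10 genes, without Ly6c1. Of 1146 fold changes of list genes under the alternatives, 1117 kept their direction and side of the threshold, 16 passed it newly and 13 no longer passed. The planned count of ATAC peaks at the 11 promoters and its alternatives were not run, because the peaks reach beyond the chromosome ends of the annotation at hand. Depth limits Efemp1, Tgm1 and Ly6c1 in organoid single cells, with at most 9 UMIs in a library.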

Other observations

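Lists that hold none of the 11 genes also changed at D11 (limma, genes called higher and lower of those tested). The stomach identity genes rose in 9 and fell in 1 of 12, YAP targets in 9 and 1 of 12, and p53 targets in 13 and 3 of 20. The small intestine enterocyte identity genes rose in 4 and fell in 15 of 22, the interferon response and antigen presentation genes in 3 and 10 of 16, and the colon identity genes fell in 6 of 6. Retinoid handling genes rose in 7 and fell in 7 of 16, mucosal defence genes in 7 and 6 of 18, villus tip genes in 5 and 6 of 13, crypt stem cell and Wnt genes in 8 and 4 of 15, and EGF ligands and receptors in 6 and 4 of 12. Over all genes 32.3% rose and 31.6% fell.

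On the retinoid list, Isx, a homeobox repressor of vitamin A uptake genes, went from 0.0856 to 77.2 FPKM at D11 (6.17, adjusted p = 8.66e-10), and its irradiated D7 means were 0.161 and 0.930 FPKM (interaction 5.43, adjusted p = 1.88e-11). It was not among the 11 because its D7 differences exceeded the limits. Scarb1, a carotenoid and lipid receptor that Isx is known to repress, fell at D11 from 90.9 to 40.6 FPKM (-1.14, adjusted p = 6.81e-06), with -0.11 at D7 (interaction -1.03, adjusted p = 1.9e-06). Stra6, the cellular retinol transporter, rose from 0.0339 to 5.59 FPKM (2.65, adjusted p = 7.15e-07, interaction 2.01). Aldh1a3, which makes retinoic acid, rose at D11 by less than at D7, 2.94 against 4.98 (interaction -2.04, adjusted p = 2.18e-07).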
